A study of Mus musculus with 2 samples.

Results

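In a droplet single-cell library of sorted mouse cochlear leukocytes, 139 of 1556 deposited barcodes (8.93%, exact 95% interval 7.56 to 10.5%) held many transthyretin (*Ttr*) transcripts and almost no hashtag. A hashtag is an antibody with a DNA tag that marks the condition a cell came from. The members were chosen by these 2 measured values, as all barcodes with at least 10 *Ttr* UMIs and fewer than 10 UMIs of the 4 hashtags together, with no filter on genes or on mitochondrial RNA. A UMI is a molecular tag that counts 1 captured RNA molecule once. They were described against 1359 hashtagged barcodes, in which 1 hashtag had at least 10 UMIs and at least 80% of the hashtag UMIs. Another 45 barcodes held several hashtags, and 13 held neither hashtag nor *Ttr*. Intervals in this text are 95% intervals and cover counting error only.

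Cochleae of 6 mice per condition were pooled and digested, and the live cells that stained for CD45, a surface protein of leukocytes, were sorted. The hashtag antibodies, against CD45 and MHC class I, marked sham cells and cells taken 3, 7 and 14 days after noise. The labels give no strain, age or genotype, and call the control both sham treated and untreated. All conditions went into 1 library, so no value here has a replicate and no difference was tested. The Ttr-rich barcodes carry no usable hashtag and therefore belong to no condition. Doublets were neither called nor removed.

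*Ttr* encodes transthyretin, a secreted carrier of thyroxine and of retinol-binding protein. In the brain it is the signature product of the choroid plexus epithelium, a polarised sheet in the ventricles that secretes the cerebrospinal fluid by moving sodium, chloride and bicarbonate, and that passes folate and thyroid hormone to the brain. The liver, the retinal pigment epithelium and pancreatic islets are other known sources of *Ttr*.

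The rule used *Ttr* and the hashtags, so their values are a description. *Ttr* ranged from 48 to 346 UMIs per Ttr-rich barcode, with a median of 212, and took 9.58 to 50.3% of the UMIs of a barcode, with a median of 33.9%. The lowest members had 48, 86 and 133 UMIs. Outside the members, the highest value was 1 UMI, in 4 of 1417 barcodes, all of them hashtagged. The *Ttr* threshold therefore cut through an empty range. On the hashtag side the highest members had 7, 6 and 4 hashtag UMIs, and the lowest of the barcodes with 10 or more had 18. The 13 barcodes with neither had 0 to 7 hashtag UMIs too, and 0 *Ttr* UMIs.

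**Figure D1:**
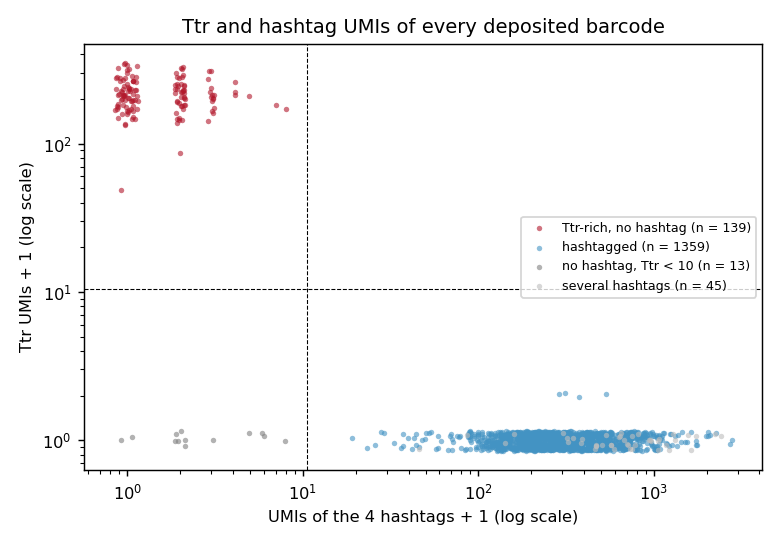
*Ttr* UMIs (vertical axis, plus 1) against UMIs of the 4 hashtags together (horizontal axis, plus 1) for each deposited barcode, on log scales and with a small random shift so that points do not hide each other. Dashed lines are the limits of 10 UMIs. The 139 Ttr-rich barcodes lie between 48 and 346 *Ttr* UMIs at 0 to 7 hashtag UMIs, and the other barcodes have 0 or 1 *Ttr* UMI.

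The 139 Ttr-rich barcodes together held 98 hashtag UMIs. Of them 76 had none, 42 had 1, 18 had 2 or 3, and 3 had 4 or more. Hashtagged barcodes had 18 to 2774 hashtag UMIs, with a median of 297. The 98 UMIs were 33 of the sham hashtag, 47 of day 3, 10 of day 7 and 8 of day 14. In percent this was 33.7, 48.0, 10.2 and 8.16% in the Ttr-rich barcodes, and 31.3, 38.4, 14.5 and 15.8% of the hashtag UMIs in the hashtagged barcodes. All 4 hashtags were present, with the order of day 7 and day 14 turned round, on counts of 10 and 8. All 1556 barcode sequences were distinct, and no Ttr-rich barcode differed from another barcode by a single base.

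The Ttr-rich barcodes were shallow. They held 90107 gene UMIs in all, with 500, 619 and 1012 UMIs per barcode (lowest, median, highest), against 503, 7090 and 65601 in hashtagged barcodes. They held 183 to 500 genes, with a median of 292, against a median of 2005 in hashtagged barcodes. Mitochondrial RNA took a median of 11.6% of the UMIs of a Ttr-rich barcode (5.71 to 23.5%) and 3.45% of those of a hashtagged barcode. Of the Ttr-rich barcodes, 57 (41.0%) lay under 600 UMIs, next to the lowest deposited value of 500. Among hashtagged barcodes 5 (0.368%) did. A filter of at least 200 genes and at most 10% mitochondrial UMIs would keep 37 of the 139. To set depth beside the results, 35 hashtagged barcodes no deeper than the deepest Ttr-rich one are used below as shallow hashtagged barcodes. Their median was 769 UMIs, 410 genes and 6.75% mitochondrial UMIs.

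**Figure D2:**
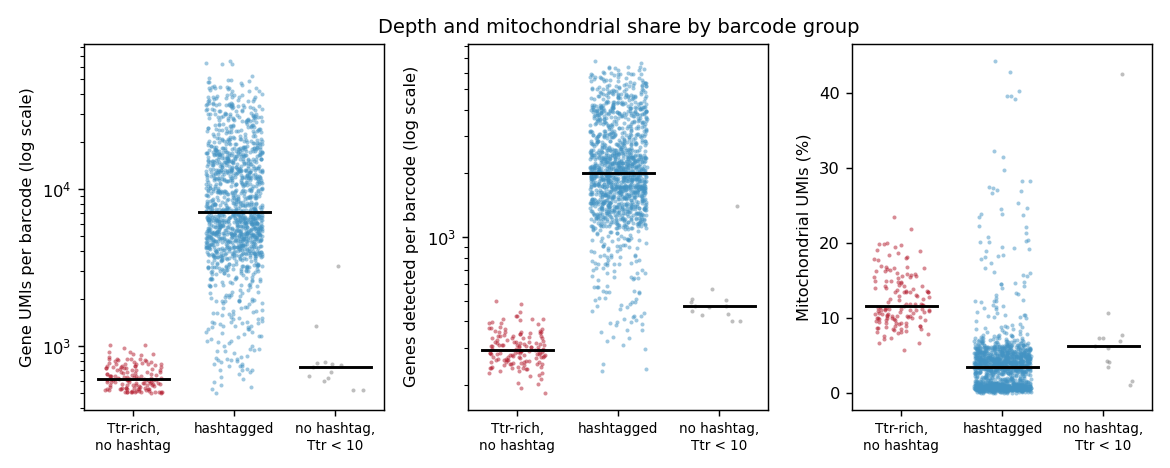
Gene UMIs, genes detected (both on log scales) and mitochondrial share of the UMIs, 1 point per barcode, for Ttr-rich barcodes without hashtag (n = 139), hashtagged barcodes (n = 1359) and barcodes with neither (n = 13). Black lines are medians: 619, 7090 and 738 UMIs, 292, 2005 and 471 genes, and 11.6, 3.45 and 6.23% mitochondrial UMIs.

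Levels below are UMIs summed over a group per 1000000 gene UMIs (CPM), and a ratio is the CPM of the Ttr-rich barcodes over that of the hashtagged barcodes. A gene was counted as higher or lower at a ratio of at least 2 in either direction, with at least 20 UMIs in both groups together. Of 11748 such genes, 1882 (16.0%) were higher and 2067 (17.6%) lower. The hashtagged barcodes were summed 164 times deeper, so 5006 of these genes had no UMI in the Ttr-rich barcodes. At that depth a single UMI in the Ttr-rich barcodes could also make a gene higher, so 1882 is not a count of well-measured differences. The gene lists were therefore counted over 990 genes that had 20 UMIs together after the background was scaled to the total of the Ttr-rich barcodes. Of these 263 (26.6%) were higher and 426 (43.0%) lower, and their median log2 ratio was -0.43. *Ttr* itself fills much of the total: with it left out of all totals, the median became 0.42. A gene that is high in 1 group alone reaches 20 UMIs through that group and must come out higher or lower, so lists made up of such genes are described by their summed levels.

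The choroid plexus markers were all detected. *Enpp2* encodes autotaxin, the secreted enzyme that makes lysophosphatidic acid. It was present in each of the 139 Ttr-rich barcodes at 1 to 25 UMIs, with a median of 9, for 1297 UMIs or 14394 CPM. In hashtagged barcodes it had 26 UMIs in 18 barcodes, or 1.76 CPM. The ratio was 8184 (5560 to 12577), and no hashtagged barcode had more than 3 UMIs. The folate receptor gene *Folr1* had 122 UMIs in 83 Ttr-rich barcodes, against 1 UMI in hashtagged barcodes. *Sostdc1*, a secreted antagonist of BMP and Wnt signals, had 131 UMIs in 85 Ttr-rich barcodes and none in hashtagged barcodes, which makes it at least 7164-fold higher (the 0 counted as 3 UMIs over the group).

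On GRCm38 (GENCODE vM21), these genes lie on different chromosomes: *Enpp2* at chr15:54838901-54952892 (minus strand), *Folr1* at chr7:101858331-101870788 (minus strand) and *Sostdc1* at chr12:36314139-36318452 (plus strand).

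Other genes known from this epithelium were similarly placed. All 16 genes of the choroid plexus list had UMIs in the Ttr-rich barcodes, 32544 together or 361171 CPM, against 171 UMIs or 11.6 CPM in hashtagged barcodes. The shallow hashtagged barcodes had none. *Ttr*, which chose the members, was most of that sum. Without it the other 15 genes had 2382 UMIs or 26435 CPM in the Ttr-rich barcodes, against 11.3 CPM in hashtagged barcodes, and 9452 to 48465 CPM in a single Ttr-rich barcode. *1500015O10Rik*, called *Ecrg4* in RefSeq, encodes a secreted peptide precursor and had 447 UMIs in 132 Ttr-rich barcodes, against 1 UMI in hashtagged barcodes. The prolactin receptor gene *Prlr* had 110 UMIs, against 1. The list also held *Kl*, which encodes klotho, a co-receptor of fibroblast growth factor signals (49 UMIs), *Kcne2* (31), *Clic6* (24), *Otx2* (18), *Cldn2* (17) and *Slc4a5* (10), all with 0 UMIs in hashtagged barcodes. *Kcnj13*, a potassium channel, had 70 UMIs in Ttr-rich barcodes and 14 in hashtagged barcodes. *Aqp1*, the water channel of the apical membrane, had only 6 UMIs (66.6 CPM), against 84 UMIs (5.68 CPM) in hashtagged barcodes.

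Genes such as *Igfbp2*, which binds insulin-like growth factors, were not in the choroid plexus list but followed it: 117 UMIs in 79 Ttr-rich barcodes, against none in hashtagged barcodes. *Ptgds*, the prostaglandin D synthase of the meninges and choroid plexus, had 192 UMIs in 97 Ttr-rich barcodes and 41 UMIs in hashtagged barcodes. The 13 barcodes with neither hashtag nor *Ttr* had 30 UMIs of it among 12027, so against them it was not higher. *Clu*, a secreted chaperone, had 135 UMIs in 85 Ttr-rich barcodes and 12 in hashtagged barcodes. *Htr2c*, a serotonin receptor, had 47 UMIs, against 0. *Mt3*, a zinc- and copper-binding protein, had 95 UMIs, against 3. *Msx1*, a homeobox factor, had 29 UMIs, against 0.

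The 250 bases before the annotated start of 3 of these genes are shown because their transcripts were high in the Ttr-rich barcodes and low in the hashtagged barcodes. They come from the RefSeq promoter table of GRCm38.p6, 5′ to 3′ on the strand of the gene, at chr1:43730352-43730601 (plus strand), chr1:72824230-72824479 (plus strand, the first of 2 listed starts) and chr2:25469750-25469999 (minus strand).

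1500015O10Rik (Ecrg4): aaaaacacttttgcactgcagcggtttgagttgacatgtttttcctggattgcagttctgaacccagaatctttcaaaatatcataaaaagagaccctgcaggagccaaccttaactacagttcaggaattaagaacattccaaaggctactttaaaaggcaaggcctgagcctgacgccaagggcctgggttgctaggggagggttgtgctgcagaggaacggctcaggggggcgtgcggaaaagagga

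Igfbp2: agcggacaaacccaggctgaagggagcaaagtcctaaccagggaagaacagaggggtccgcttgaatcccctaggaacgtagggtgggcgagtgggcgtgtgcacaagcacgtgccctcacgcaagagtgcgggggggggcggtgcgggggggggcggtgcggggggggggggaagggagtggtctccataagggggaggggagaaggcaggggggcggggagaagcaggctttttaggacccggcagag

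Ptgds: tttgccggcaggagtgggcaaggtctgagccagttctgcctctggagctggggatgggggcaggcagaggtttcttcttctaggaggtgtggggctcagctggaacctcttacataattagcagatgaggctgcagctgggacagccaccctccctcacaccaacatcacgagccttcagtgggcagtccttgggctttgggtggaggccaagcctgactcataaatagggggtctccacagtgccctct

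The letters TAATCC, bound by OTX-type homeodomain factors, and GTTGCCA, an RFX half-site, were searched on both strands (also read as GGATTA and TGGCAAC). The table held 16 of the 25 genes named for their high ratios, which were taken among genes with at least 30 UMIs and with a UMI in at least 50% of the Ttr-rich barcodes. TAATCC was in 1 of them, *Apoe*, and GTTGCCA in 0 of 16. Among 27025 promoters of the table they occurred in 6.38% and 3.69%. The 3 printed windows hold neither, so no letters are in capitals.

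**Figure D3:**
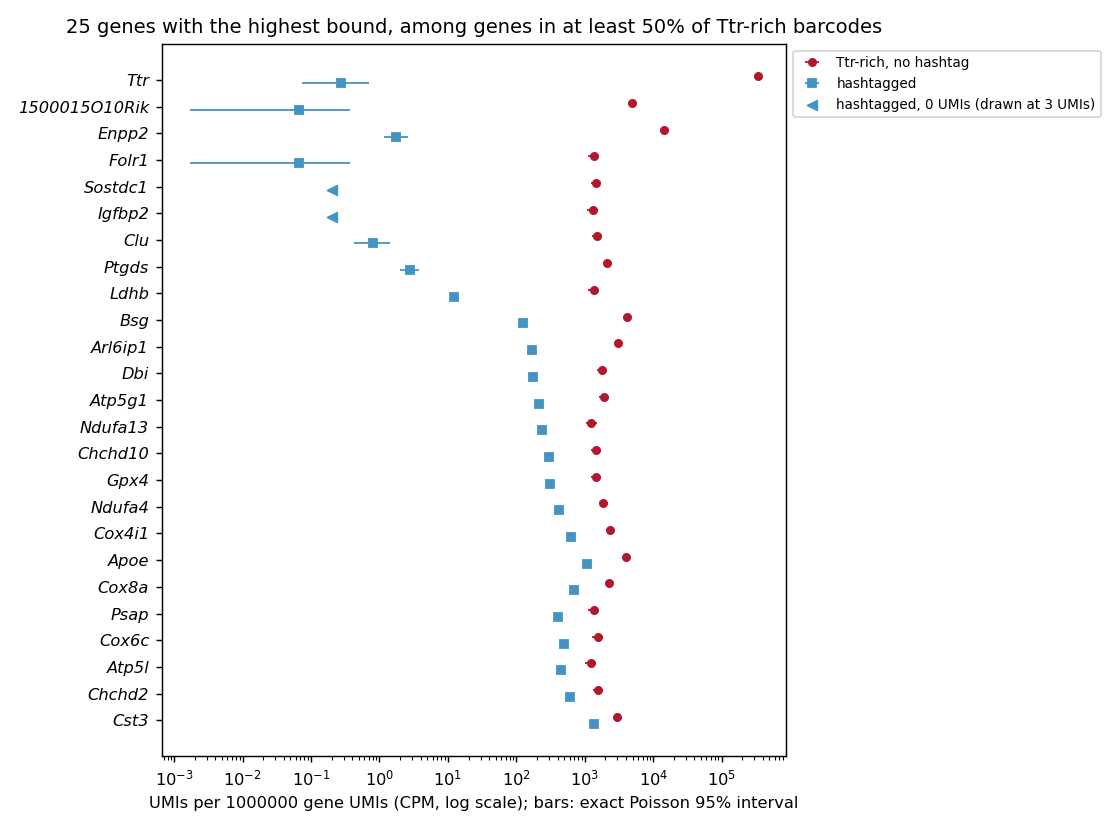
Levels of the 25 genes with the highest lower bound of the ratio among those found in at least 50% of the Ttr-rich barcodes, in Ttr-rich barcodes (circles) and hashtagged barcodes (squares), in CPM on a log scale with exact Poisson 95% intervals. Arrowheads stand for 0 UMIs, drawn at 3 UMIs. The ratio runs from 2.23 for *Cst3* to 1237150 for *Ttr*, and in each row the circle lies right of the square.

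In the list of ion, bicarbonate and water transport, 19 of 24 genes had UMIs in the Ttr-rich barcodes, 5660 CPM in all, against 314 CPM in hashtagged barcodes. The shallow hashtagged barcodes had 482 CPM. *Fxyd1*, a small regulator of the sodium pump, had 82 UMIs, against 4 in hashtagged barcodes. *Slc12a2*, the sodium-potassium-chloride cotransporter, had 36 UMIs (400 CPM), against 47 (3.18 CPM). *Atp1b1*, a subunit of the sodium pump, was 5.58 times as high (4.33 to 7.07), but not higher than in the 13 barcodes with neither hashtag nor *Ttr*. *Car2*, a carbonic anhydrase, was 4.58 times as high (3.03 to 6.67), on 28 UMIs. The list of folate, vitamin, thyroid hormone and organic solute transport summed to 2641 CPM, against 76.2 CPM. It holds *Folr1* and *Slco1c1*, a thyroxine carrier (28 UMIs against 0). Genes of tight junctions and keratins had few UMIs: *Cldn2* 17, *Krt18* 16 and *Krt8* 5, against 0, 59 and 0 in hashtagged barcodes. Their list still summed to 666 CPM, against 29.3 CPM in hashtagged barcodes and 37.1 CPM in the shallow ones. It was not higher than in the 13 barcodes with neither hashtag nor *Ttr*.

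Among secreted carriers and growth factors, 18 of 21 genes had UMIs in the Ttr-rich barcodes. Without *Ttr* the list summed to 31307 CPM, against 2712 CPM in hashtagged barcodes and 3414 CPM in the shallow ones. Besides those above it included *Gas6*, a ligand of TAM receptors (56 UMIs against 62), *Wfdc2* (48 against 6), transferrin *Trf* (24 against 933) and *Lbp*, which binds bacterial lipopolysaccharide (38 against 381). These are UMI counts, and the hashtagged barcodes were summed 164 times deeper. As a share of gene UMIs, each of these genes was higher in the Ttr-rich barcodes. *Apoe*, a lipid carrier made by macrophages too, had 359 UMIs in 123 Ttr-rich barcodes, or 3984 CPM, against 1090 CPM in hashtagged barcodes, a ratio of 3.65 (3.28 to 4.06). In the shallow hashtagged barcodes it had 2338 CPM. *Igf2*, *Rbp4* and *Cp* had no UMI in the Ttr-rich barcodes.

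Without *Ttr* the choroid plexus list, at 26435 CPM, was still above the lists of 24 other cell types, the next of which was that of neutrophils at 8623 CPM. These sums compare 15 genes with lists of 5 to 10 genes of unlike abundance. *Enpp2* alone was 14394 CPM of the choroid plexus sum. *Enpp2*, *Folr1* and *Sostdc1* were given with the rule as markers of these barcodes, so the ranking is a description. Hepatocytes, cochlear supporting cells, spiral ganglion neurons, osteoblasts and platelets had 0 UMIs in the Ttr-rich barcodes, where 3 UMIs would be 33.3 CPM. The list of the retinal pigment epithelium had 1 UMI and that of strial marginal cells 1. Pancreatic islets had 4, all of *Ins2*. Ependymal cells line the ventricles beside the choroid plexus, and 8 of the 10 genes of their list had UMIs in the Ttr-rich barcodes. The list had 39 UMIs (433 CPM), against 3311 UMIs (224 CPM) in hashtagged barcodes and 891 CPM in the shallow ones. Most of the 3311 UMIs came from 1 gene, the only one measured with the scaled background, at a ratio of 0.108. Most of the 39 UMIs came from the other genes, so the summed level does not describe those. The unscaled rule measured 2 genes of the list, 1 higher and 1 lower. *Foxj1*, the master factor of motile cilia, was found in 1 hashtagged barcode, and the ependymal markers *Ccdc153* and *Tmem212* in 0. In the Ttr-rich barcodes these genes had 1, 0 and 0 UMIs. Of the 24 motile cilium genes, 15 had UMIs there. Their list summed to 1520 CPM, against 381 CPM in hashtagged barcodes and 297 CPM in the shallow ones. Against the barcodes with neither hashtag nor *Ttr*, its summed log2 ratio was -1.06. Of the list of Reissner's membrane, 192 of 193 UMIs were *Ptgds*. The 14 UMIs of the list of strial intermediate cells and melanocytes were all *Gsta4*.

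**Figure D4:**
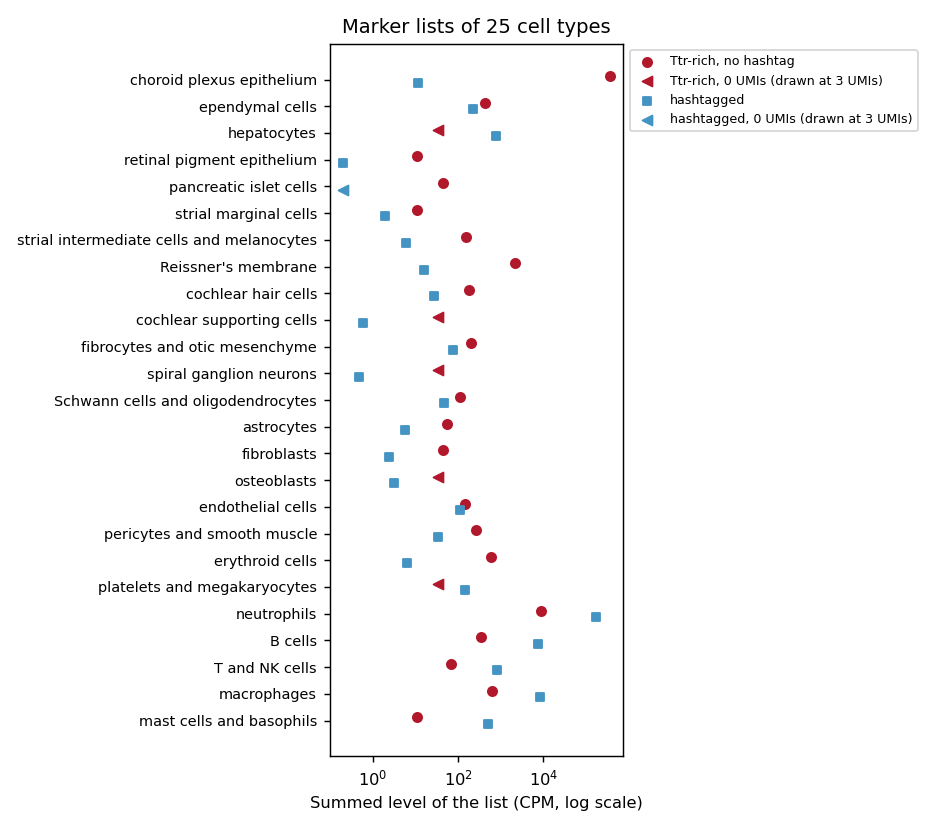
Summed level of 25 marker lists (CPM, log scale) in Ttr-rich barcodes (circles) and hashtagged barcodes (squares). Arrowheads stand for 0 UMIs, drawn at 3 UMIs. The choroid plexus list stands at 361171 and 11.6 CPM, and the neutrophil list at 8623 and 171275 CPM.

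Leukocyte transcripts were low, though the sort was for CD45. *Ptprc*, which encodes CD45, had 2 UMIs in the Ttr-rich barcodes (22.2 CPM, 2.69 to 80.2), against 7415 UMIs (502 CPM) in hashtagged barcodes. MHC class I is the other target of the hashtag antibodies. Its light chain *B2m* had 16 UMIs in Ttr-rich barcodes (178 CPM), against 1021 CPM in hashtagged barcodes, and the heavy chains *H2-K1* and *H2-D1* had 14 and 9 UMIs. The list of antibody targets summed to 577 CPM in Ttr-rich barcodes, against 4043 CPM in all hashtagged barcodes and 7496 CPM in the shallow ones. Low RNA of the antibody targets and few hashtag UMIs thus occurred in the same barcodes; whether the RNA bears on the hashtag count was not tested.

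Pan-leukocyte genes summed to 599 CPM in the Ttr-rich barcodes, against 9985 CPM in hashtagged barcodes. The neutrophil calprotectin genes *S100a8* and *S100a9* still had 289 and 329 UMIs, in 119 and 123 of the 139 Ttr-rich barcodes. Their ratios were 0.0510 (0.0453 to 0.0572) and 0.0495 (0.0443 to 0.0552). The granule genes *Camp* (0.0430), *Ngp* (0.0512) and *Retnlg* (0.0512), the lysozyme gene *Lyz2* (0.0523) and the immunoglobulin light chain *Igkc* (0.0448) had ratios close to these. A single hashtagged barcode held 27323 of the 62252 *Igkc* UMIs of the hashtagged barcodes, so the *Igkc* ratio depends on it. In the shallow hashtagged barcodes *Igkc* had 186 CPM, against which its 189 CPM in the Ttr-rich barcodes was not lower. *Retnlg* had 2 UMIs in the 13 barcodes with neither hashtag nor *Ttr*, and was not lower against them. The summed ratio was 0.0503 (0.0469 to 0.0540) for neutrophil genes and 0.0453 (0.0308 to 0.0643) for B cell genes. Against the shallow hashtagged barcodes these were 0.113 (0.104 to 0.122) and 0.185 (0.114 to 0.296). The B cell list holds *Igkc*, so its 0.0453 also depends on the barcode with 27323 *Igkc* UMIs. The lowest of the ratios named by rule were those of *Cd52* (0.0169), *S100a6* (0.0197) and *Junb* (0.0236), on 3 UMIs each.

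*S100a8* UMIs were also common in hashtagged barcodes with B cell transcripts, from which doublets were not removed. Of 294 hashtagged barcodes with at least 10 UMIs of the B cell gene *Cd79a*, 287 had an *S100a8* UMI (97.6%). Their median was 4 UMIs at a median depth of 5977, with a mean of 38.0 and a highest value of 5701. In the Ttr-rich barcodes the share was 85.6%, with a median of 2 UMIs at a median depth of 619. The converse was rare: *Ttr* was found in 1 of these 294 barcodes (0.340%), and *Enpp2* in 0 of 294 (up to 1.25%). The macrophage complement genes *C1qa*, *C1qb* and *C1qc* departed from the low ratios, with 5, 6 and 3 UMIs and ratios of 0.531, 0.860 and 0.605, whose intervals all include 1.

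**Figure D5:**
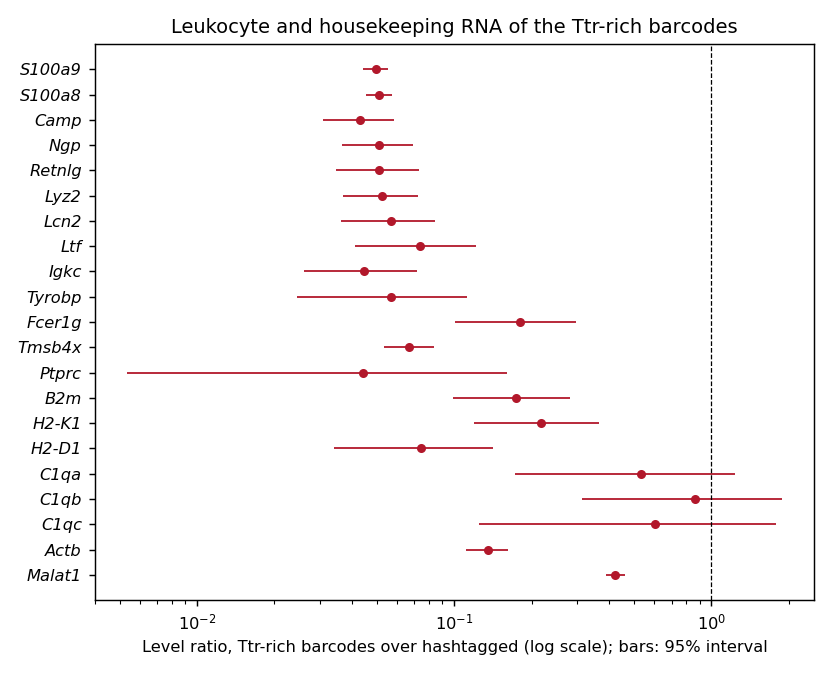
Ratio of the level in Ttr-rich barcodes over that in hashtagged barcodes (log scale) for leukocyte genes, antibody targets and the housekeeping genes *Actb* and *Malat1*, with exact 95% intervals. The dashed line marks equal levels. Neutrophil genes and the B cell gene *Igkc* lie near 0.05, while *Malat1* is at 0.423 and *C1qb* at 0.860.

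Genes of mitochondria were high. Of 12 measured mitochondrially encoded transcripts 11 were higher and 0 lower, with a median log2 ratio of 1.97. Of all 990 genes 26.6% were higher and 43.0% lower, with a median of -0.43. Against the shallow hashtagged barcodes the ratio of this list was 1.10 (1.05 to 1.14). *mt-Co3*, a subunit of cytochrome c oxidase, had 5 to 40 UMIs in a Ttr-rich barcode and was 3.81 times as high (3.65 to 3.98) as in hashtagged barcodes. The mitochondrially encoded list took 125606 CPM in Ttr-rich barcodes, against 31578 CPM in all hashtagged barcodes and 114480 CPM in the shallow ones. By barcode the median share was 11.6% in Ttr-rich, 6.75% in shallow hashtagged (0.107 to 44.3%) and 3.45% in all hashtagged barcodes. It was over 10% in 102 of 139 Ttr-rich and 15 of 35 shallow hashtagged barcodes. The near-equal sums thus did not hold barcode by barcode. The part of depth in the difference was not tested. Against the shallow barcodes *mt-Co1* and *mt-Atp6* turned to lower.

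Nuclear genes of the respiratory chain were also high in summed level, most so against the shallow hashtagged barcodes. Of 33 measured, 18 were higher and 0 lower, where 26.6% of all 990 genes were higher. Their median log2 ratio was 1.17, against -0.43 for all genes. Of the 33, 28 reached 20 UMIs in the Ttr-rich barcodes alone and 18 in the scaled background alone. That count and median therefore follow in part from the rule. The unscaled rule measured all 36 genes of the list. Of these 19 were higher and 1 lower, where 16.0% of 11748 genes were higher. Their median log2 ratio was 1.12, against 0.77 for all genes. The 16.0% and the 0.77 include 5006 genes without a UMI in the Ttr-rich barcodes. Such a gene was set to 3 UMIs in the median and could not count as higher. Neither value is therefore a like comparison for this list. The list took 24660 CPM in Ttr-rich barcodes, against 9265 CPM in all hashtagged barcodes and 2598 CPM in the shallow ones. *Atp5g1*, a subunit of the ATP synthase, was 8.75 times as high (7.46 to 10.2), *Ndufa4* 4.51 times (3.85 to 5.26) and *Cox4i1* 3.81 times (3.31 to 4.37). *Ldhb*, the lactate dehydrogenase of oxidative tissues, was 108 times as high (85.5 to 137), and *Bsg*, the partner of lactate carriers, 32.4 times (28.9 to 36.3). Ribosomal protein genes took 4.93% of UMIs in Ttr-rich barcodes, 17.6% in hashtagged barcodes and 4.22% in shallow hashtagged barcodes. *Malat1*, a long RNA kept in the nucleus, had 6348 CPM in Ttr-rich barcodes, against 14996 CPM in all hashtagged barcodes and 83012 CPM in the shallow ones.

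Of other groups, lysosomal genes summed to 6004 CPM in Ttr-rich barcodes, against 2145 CPM in hashtagged barcodes, and the protease gene *Ctsl* was 9.24 times as high (6.85 to 12.2). Genes of protein folding and secretion in the endoplasmic reticulum summed to 5327 CPM, against 3401 CPM. *Gpx4*, which reduces lipid peroxides, was 4.66 times as high (3.89 to 5.54). Cell cycle genes summed to 233 CPM, against 3889 CPM. Immediate early and dissociation-induced genes, which switch on when tissue is digested, summed to 1642 CPM, against 6971 CPM. *Fos* had 5 UMIs (55.5 CPM) in Ttr-rich barcodes, against 841 CPM in hashtagged barcodes. In the same list the chaperone gene *Hsp90aa1* was 2.18 times as high (1.73 to 2.71), but not higher than in the 13 barcodes with neither hashtag nor *Ttr*. *Ifi27*, an interferon-induced gene, was 7.92 times as high (6.05 to 10.2), while *Hp* and *Lcn2*, acute phase genes that neutrophils also make, had 0 and 24 UMIs.

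Most genes showed no spread among the Ttr-rich barcodes beyond sampling, as far as the depth could show it. For each of 276 genes with at least 30 UMIs, the variance over barcodes was set against that of random sampling at each depth, where 1 means no spread beyond sampling. The median was 1.03, and 265 genes lay under 1.5. The 5 genes over 2 were *Ttr* (8.16), *mt-Co3* (2.67), *mt-Cytb* (2.12), *Wfdc2* (2.08) and *mt-Co2* (2.07). *Enpp2* had 1.43, *Sostdc1* 0.921, *Folr1* 0.945 and *1500015O10Rik* 0.833. Among other genes of high level, *Malat1* had 1.995 and *mt-Atp6* 1.78, while *mt-Co1* had 1.08 and *mt-Nd4* 1.13. At a median of 619 UMIs a barcode, spread in a low gene was not detectable. The median of 1.03 therefore cannot tell whether the barcodes were alike. The member with the lowest *Ttr*, 48 of 501 UMIs, still had 4 *Enpp2* UMIs.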

How the data were processed

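The deposited data were 2 matrices of whole-number UMI counts per gene and barcode of 1 library, 1 of them also with the counts of 4 hashtags. The authors made these counts with Cell Ranger 3.1.0, per the file headers, on mm10, per the submitters' processing notes. Every barcode held at least 500 UMIs, and the rule that called it a cell is not stated. The labels name 2 versions of the kit. Deposited counts were summed over barcodes and divided by all gene UMIs to give CPM. Levels have exact Poisson intervals, ratios exact conditional Poisson intervals and shares exact Clopper-Pearson intervals. A count of 0 was set to 3 UMIs for a bound. With 1 library there is no test and no p-value. The ratio step was tested on simulated data.

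Genes were measured with at least 20 UMIs in both groups together. After the data were seen, this was also done with the background scaled to the total of the Ttr-rich barcodes, and the lists use that rule. Without scaling, 5006 of the 11748 genes measured had no UMI on the shallow side. Some genes are not reported here. Named genes were the 25 with the highest lower bound of the ratio among genes with at least 30 UMIs in, and found in at least 50% of, the Ttr-rich barcodes; the 10 with the lowest upper bound among genes with at least 30 UMIs expected; the 10 with the highest level; and list members. Mitochondrial, ribosomal protein, unnamed and receptor-segment genes were left out of the ratio rankings. The members and lists were chosen with earlier results of these data known. Gene positions are from GENCODE vM21, which held 30934 of 31053 gene IDs. Python 3.11.15, numpy 2.4.6, scipy 1.17.1 and pandas 2.3.3 were used.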

Additional observations from a re-analysis of the deposited data

How the results depend on the processing

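With a filter of at least 200 genes and at most 10% mitochondrial UMIs, 37 Ttr-rich barcodes were left, with a median of 8.89% mitochondrial UMIs and 1688 genes higher and 535 lower. Limits of 5 or 20 *Ttr* UMIs and of 20 hashtag UMIs kept 139 barcodes, and a limit of 5 hashtag UMIs kept 137. With *Ttr* left out of totals, 2692 genes were higher and 1225 lower (68.7% of calls higher, against 47.7% as reported). With the background scaled, 263 were higher and 426 lower (38.2%). Against the shallow hashtagged barcodes, an alternative chosen after seeing the data, 271 were higher and 162 lower (62.6%). There these log2 ratios changed sign: fibrocytes and otic mesenchyme to -1.03, *Igkc* to 0.024, *mt-Atp6* to -0.14 and *mt-Co1* to -0.67. Against the 13 barcodes with neither hashtag nor *Ttr*, 116 genes were higher and 144 lower. There the summed log2 ratio turned to -4.93 for strial intermediate cells and melanocytes, -0.22 for Reissner's membrane, -1.17 for Schwann cells and oligodendrocytes, -4.04 for astrocytes, -0.91 for pericytes, -0.46 for epithelial junctions and -1.06 for motile cilium genes. List medians turned to -0.091 for iron, copper and zinc handling, -0.37 for BMP and Wnt signalling and -1.08 for oxidative stress. Single genes turned to -0.36 for *Atp1b1*, -0.92 for *Dbi*, -0.27 for *Hsp90aa1*, -0.37 for *Id1*, 1.18 for *Igkc*, -0.23 for *Ptgds*, 1.05 for *Retnlg* and -0.32 for *mt-Co1*. These 13 barcodes held 12027 UMIs, and the cause was not tested. Thinning to 1000 UMIs left 2 Ttr-rich barcodes, so shares were also thinned to 500, where *Folr1* was in 50.8% of Ttr-rich barcodes and 59.7% as deposited. No paired analysis was possible because all values come from 1 library with no replicates.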

Other observations

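2 results were chosen after their values were seen. *Xist*, the RNA that coats the inactive X chromosome of female cells, had 25 UMIs in 25 Ttr-rich barcodes, against 4 UMIs in 4 hashtagged barcodes. The Y-linked genes *Ddx3y*, *Eif2s3y*, *Kdm5d* and *Uty* together had 0 UMIs in the Ttr-rich barcodes, where 16.1 UMIs would lie at the level of the hashtagged barcodes, which had 2649 UMIs in 976 barcodes. The labels give no sex.

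The hemoglobin genes *Hbb-bs*, *Hba-a1*, *Hba-a2* and *Hbb-bt* had 20, 18, 8 and 6 UMIs in Ttr-rich barcodes, all 52 of them in a single barcode of 735 UMIs, of which 38.0% were *Ttr*.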
